A study of Homo sapiens with 6 samples.

Results

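The MAGE (melanoma antigen) genes were taken as all genes in the tables whose name begins with MAGE and a letter from A to L. There were 30 such genes among the 19089 genes listed in any library. Of these, 21 belong to the cancer-testis subfamilies (12 MAGEA, 6 MAGEB and 3 MAGEC genes), and 9 to the subfamilies D, E, F, H and L, which are widely expressed in normal tissue. RefSeq places 28 of the 30 on the X chromosome, with MAGEF1 on chromosome 3 and MAGEL2 on chromosome 15.

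All MAGE proteins share a MAGE homology domain, through which many of them bind a RING-type ubiquitin ligase and steer it towards a substrate. The A, B and C genes are normally active in the germ cells of the testis and silent elsewhere, with methylated promoters, and many tumours, liver tumours among them, switch some of them on. Their peptides are presented to T cells, which is how the first members were found. The D to L genes arose earlier in evolution and act in development, neuronal apoptosis, DNA repair and vesicle traffic.

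The libraries came from 3 human hepatocellular carcinoma cell lines. The medium of Hep3B was MEM with sodium pyruvate and 15% serum, that of HCCLM3 and MHCC97H was DMEM with 10% serum, and penicillin, streptomycin and ciprofloxacin were in both, so a difference from Hep3B cannot be told apart from one of medium. HCCLM3 and MHCC97H descend from the same parental line. Sequenced for each line were its total polyadenylated mRNA (mRNA) and the part held in complexes of ribosome and nascent chain (RNC-mRNA, which is being translated), in equal pools of 3 cultures. Each line and fraction therefore had 1 library and no replicate, so differences between lines are given with 95% counting intervals and no test. Levels are RPKM, reads scaled to the length of the gene model and to the size of the library, as the authors deposited them. The tables held 119086844 to 147788269 reads. ALB and APOA2, liver markers, had mRNA levels of 4164 and 4566 RPKM in Hep3B, 1.93 and 1.08 in HCCLM3 and 12.0 and 2.36 in MHCC97H, whereas the epithelial keratin KRT8 stood at 694 to 1824 RPKM in mRNA of all 3 lines.

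Promoter sequences are shown for 6 members with large differences between lines (MAGEA3, MAGEA6, MAGEA12, MAGEC1, MAGEC2 and MAGED4B) and for MAGEF1, which was near even in mRNA, because DNA methylation of these promoters is the known switch of the cancer-testis genes. Each sequence is the 250 bases before a RefSeq start site on GRCh38.p14, written 5′ to 3′ on the gene's strand. Capitals mark CCGGAA (a form of the core bound by ETS factors) or GGGCGG (the core bound by SP1) on either strand. Other forms of the ETS core were not searched and are not marked. The MAGEA3 window is chrX:152698544-152698793 on the plus strand. The MAGEA6 window, chrX:152769690-152769939 on the minus strand, held the same 250 letters.
MAGEA3 and MAGEA6: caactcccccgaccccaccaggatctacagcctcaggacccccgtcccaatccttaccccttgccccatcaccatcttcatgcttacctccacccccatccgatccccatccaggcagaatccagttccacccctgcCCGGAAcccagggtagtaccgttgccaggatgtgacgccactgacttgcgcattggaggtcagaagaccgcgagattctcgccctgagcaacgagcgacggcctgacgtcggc
MAGEA12: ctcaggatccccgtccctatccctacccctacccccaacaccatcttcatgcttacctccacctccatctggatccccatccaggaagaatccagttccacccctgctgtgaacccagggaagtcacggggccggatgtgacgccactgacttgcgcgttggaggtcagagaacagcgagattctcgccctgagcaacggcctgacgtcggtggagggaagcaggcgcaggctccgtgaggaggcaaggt
MAGEC1: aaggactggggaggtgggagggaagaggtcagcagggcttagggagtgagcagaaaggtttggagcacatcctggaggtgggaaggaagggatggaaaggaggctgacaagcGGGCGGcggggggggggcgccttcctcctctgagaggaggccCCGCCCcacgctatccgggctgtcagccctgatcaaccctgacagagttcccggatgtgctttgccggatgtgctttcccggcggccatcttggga
MAGEC2: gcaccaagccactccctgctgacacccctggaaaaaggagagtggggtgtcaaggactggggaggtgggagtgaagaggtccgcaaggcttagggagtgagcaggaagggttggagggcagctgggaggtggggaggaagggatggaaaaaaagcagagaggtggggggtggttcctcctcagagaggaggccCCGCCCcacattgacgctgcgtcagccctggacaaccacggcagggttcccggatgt
MAGED4B: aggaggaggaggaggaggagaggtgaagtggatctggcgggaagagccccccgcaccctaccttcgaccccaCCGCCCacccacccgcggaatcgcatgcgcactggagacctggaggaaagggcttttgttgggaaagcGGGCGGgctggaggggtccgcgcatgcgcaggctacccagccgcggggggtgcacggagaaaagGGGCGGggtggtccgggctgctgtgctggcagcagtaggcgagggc
MAGEF1: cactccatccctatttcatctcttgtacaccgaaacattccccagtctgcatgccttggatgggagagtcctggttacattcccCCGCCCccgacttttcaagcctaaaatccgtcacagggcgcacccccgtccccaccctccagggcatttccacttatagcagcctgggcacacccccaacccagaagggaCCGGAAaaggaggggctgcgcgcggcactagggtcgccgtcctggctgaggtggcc
The MAGEA12 window is chrX:152733612-152733861 on the plus strand, and its longest run of letters in common with the MAGEA3 window was 25 bases. A second MAGEA12 window, chrX:152733507-152733756, is not shown. The windows of MAGEC1 (chrX:141903644-141903893, plus strand) and MAGEC2 (chrX:142205291-142205540, minus strand) shared a run of 20 bases. The MAGED4B window is chrX:52069184-52069433 and the MAGEF1 window chr3:184712065-184712314, both on the minus strand.

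RefSeq promoters were found for 26 of the 30 genes, in 36 windows, since some genes have several start sites. CpG, the dinucleotide that is methylated, occurred 15 times in the MAGEA3 and MAGEA6 window, 13 times in the MAGEA12 window shown and 5 times in the other one, 11 times in MAGEC1, 6 in MAGEC2, 19 in the MAGED4B window shown and 16 in the other one, and 12 in MAGEF1. The median was 11 over the 25 windows of A to C genes, 12 over the 11 windows of D to L genes and 11 over all 35116 windows of the same length. CCGGAA was present in 3 of the 25 A to C windows, those of MAGEA3, MAGEA6 and MAGEB6. It was present in 1 of the 11 D to L windows (MAGEF1) and in 14.5% of all windows. These counts leave out other forms of the ETS core, such as the ccggat in the windows shown of MAGEA12, MAGEC1 and MAGEC2. The SP1 core was present in 10 of 25, 9 of 11 and 42.6% of all windows. Some windows belong to the same gene, as for MAGEA4, or to near-identical copies, as for MAGED4 and MAGED4B. The window counts are therefore not counts of separate promoters. No SP1 core overlaps a CCGGAA match in these 36 windows. A match is a description of letters only.

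Most of the family was near silent in these lines, and a few members carried nearly all of its reads. In all, 12 members reached 1 RPKM in some library, 6 of the 21 cancer-testis genes (MAGEA2B, MAGEA3, MAGEA6, MAGEA12, MAGEC1 and MAGEC2) and 6 of the 9 others (MAGED1, MAGED2, MAGED4B, MAGEE1, MAGEF1 and MAGEH1). Over all genes, 68.1% reached 1 RPKM in some library. In all 6 libraries at once it was reached by 4 members, MAGEA6, MAGED1, MAGED2 and MAGEF1, against 50.6% of all genes. The cancer-testis genes had a median level of 0.00850, 0.0272 and 0.135 RPKM in mRNA of Hep3B, HCCLM3 and MHCC97H. The D to L genes had 0.450, 1.33 and 1.07 RPKM, and all genes 2.80, 2.41 and 2.49. At 1 RPKM or more were 2, 3 and 4 of the 21 cancer-testis genes and 4, 5 and 5 of the 9 others in mRNA of the lines in that order, and in RNC-mRNA 2, 3 and 5, and 4, 5 and 4. Of all genes, 61.5%, 60.1% and 60.2% were at that level in mRNA and 57.3%, 58.4% and 58.6% in RNC-mRNA.

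**Figure D1:**
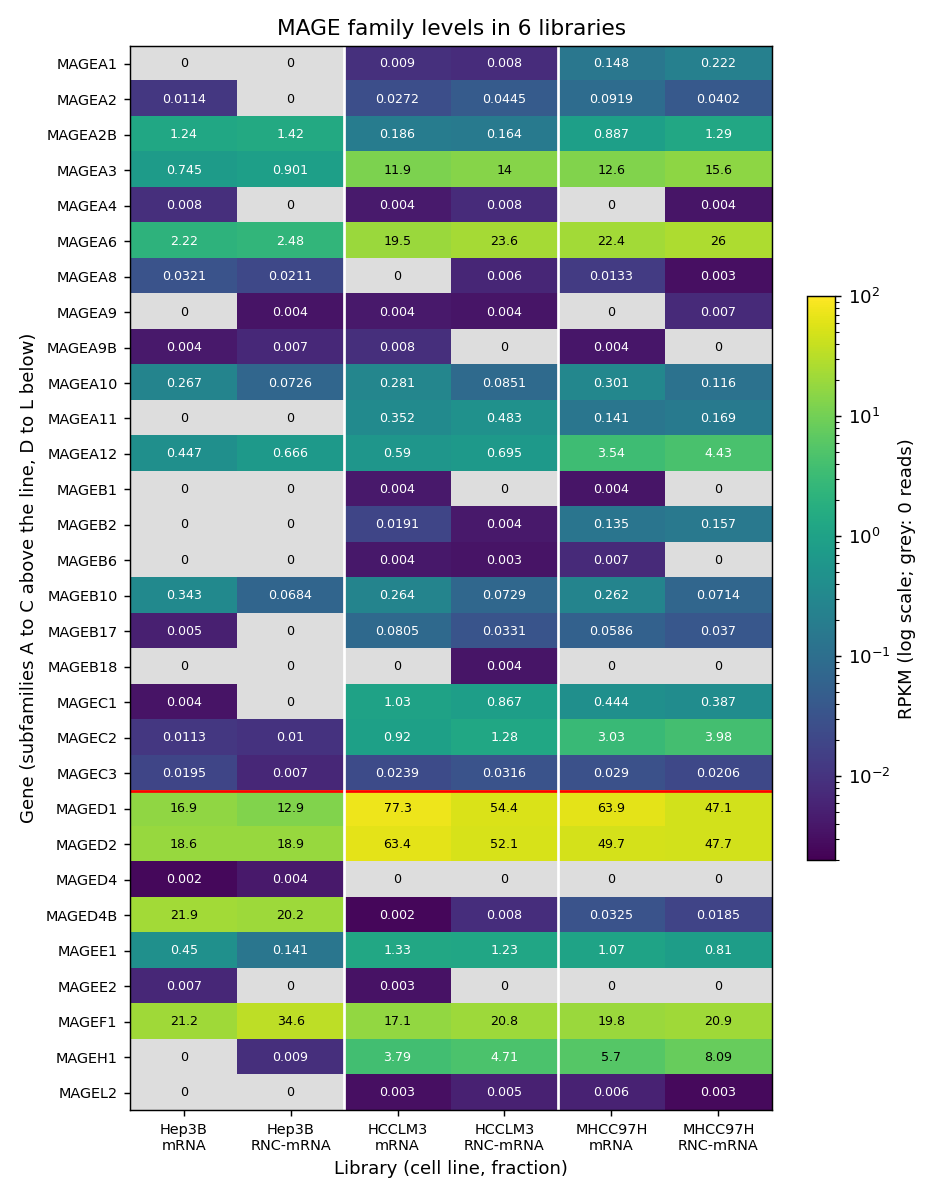
Level of each of the 30 MAGE genes (rows) in each of the 6 libraries (columns), as RPKM on a log colour scale with the value printed in each cell; grey cells had 0 reads. Above the red line, MAGEA3 and MAGEA6 are the brightest rows and are dimmer in Hep3B (0.745 to 2.48 RPKM) than in the other lines (11.9 to 26.0), and below it MAGED4B is bright in Hep3B alone.

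Reads were summed over each subfamily, which is not affected by how they are split among near-identical copies, and scaled to the library total, as RPM. The MAGEA genes took 9.50 RPM in Hep3B mRNA (95% Poisson interval 8.99 to 10.0). In HCCLM3 mRNA they took 62.2 (60.8 to 63.5) and in MHCC97H mRNA 75.3 (73.9 to 76.8). The RNC-mRNA libraries had 10.5, 73.8 and 90.0 RPM of MAGEA in the same order of lines. The MAGEC genes took 0.0753, 6.26 and 7.98 RPM in mRNA and 0.0318, 6.32 and 9.61 in RNC-mRNA, and so were nearly absent from Hep3B. The MAGEB genes took 0.134 to 0.833 RPM over the 6 libraries. The MAGED genes were the most abundant subfamily, at 203, 557 and 455 RPM in mRNA. Intervals and limits given here cover counting error only.

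**Figure D2:**
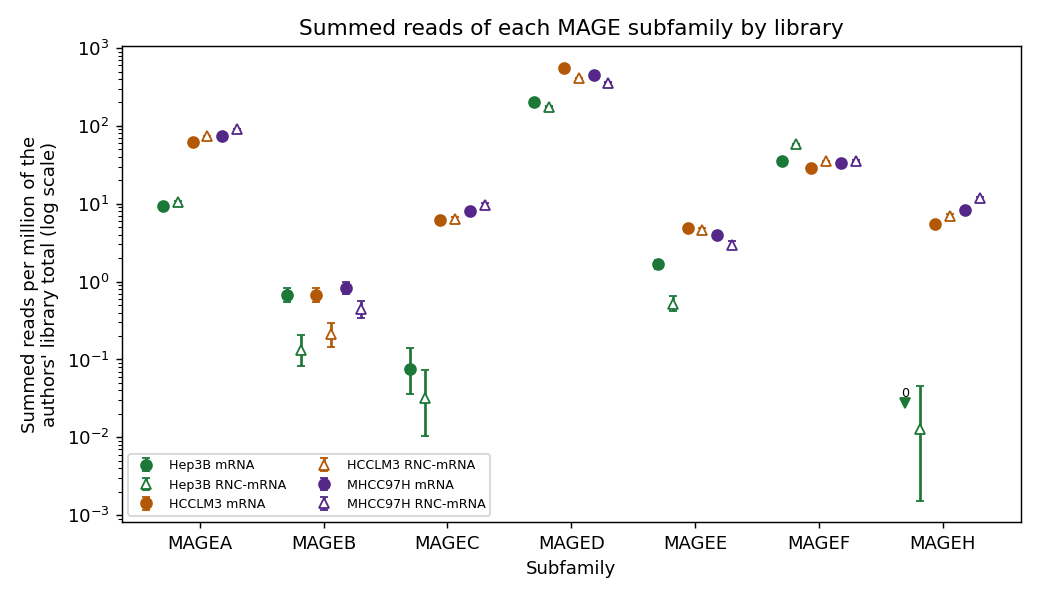
Summed reads of each subfamily, as RPM (reads scaled to the authors' library total), on a log axis, with circles for mRNA, triangles for RNC-mRNA, colours for the lines and bars for 95% Poisson intervals; the downward triangle marks the upper limit at 0 reads, and MAGEL, with 0 to 2 reads per library, is left out. MAGEA, MAGEC, MAGED, MAGEE and MAGEH lie lowest in both Hep3B libraries, while MAGEF is highest in Hep3B RNC-mRNA (58.1 RPM).

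MAGEA3 and MAGEA6, whose proteins work with the ligase TRIM28 to degrade the alpha subunit of AMP-activated kinase, had the highest levels of all cancer-testis members in HCCLM3 and MHCC97H, and were far lower in Hep3B. Bulk libraries cannot tell fewer expressing cells from less RNA per cell, here or for any gene that follows. MAGEA3 had mRNA levels of 0.745 RPKM in Hep3B, against 11.9 in HCCLM3 and 12.6 in MHCC97H. In RNC-mRNA it stood at 0.901, 14.0 and 15.6 RPKM. Both Hep3B libraries were lower than all others, and HCCLM3 exceeded Hep3B 16.0-fold in mRNA (13.9 to 18.5) and MHCC97H did so 16.9-fold (14.7 to 19.6). MAGEA6 stood at 2.22, 19.5 and 22.4 RPKM in mRNA and at 2.48, 23.6 and 26.0 in RNC-mRNA. Its level was 8.76-fold (7.99 to 9.62) higher in HCCLM3 mRNA and 10.1-fold (9.21 to 11.1) higher in MHCC97H mRNA than in Hep3B. Together the pair took 94.4% of all MAGEA reads in HCCLM3 mRNA, 86.6% in MHCC97H mRNA and 57.0% in Hep3B mRNA.

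The reads given to each copy of this pair are uncertain, because the copies are near-identical and the sources used here do not give how reads that map to several genes were handled. Reads assigned to MAGEA6 outnumbered those assigned to MAGEA3 by 1.36 (1.30 to 1.43) in HCCLM3 mRNA, 1.41 in its RNC-mRNA, 1.48 in MHCC97H mRNA and 1.39 in its RNC-mRNA. In Hep3B the ratio was 2.49 (2.11 to 2.94) in mRNA and 2.30 in RNC-mRNA, and both intervals lay above those of the other 4 libraries. With the reads of both copies summed over their mean length, the level was 2.83 RPKM in Hep3B mRNA, against 30.7 in HCCLM3 and 34.1 in MHCC97H, in the same order of lines as each copy alone.

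MAGEA12 and MAGEA2B lie between MAGEA3 and MAGEA6 in the same cluster on Xq28 and followed other patterns. MAGEA12 had mRNA levels of 0.447 RPKM in Hep3B, against 0.590 in HCCLM3 and 3.54 in MHCC97H, with 0.666, 0.695 and 4.43 RPKM in RNC-mRNA. It was thus highest in MHCC97H, 7.92-fold (6.50 to 9.74) above Hep3B and 6.01-fold (5.03 to 7.22) above HCCLM3 in mRNA. MAGEA2B, a copy of MAGEA2, whose protein binds TRIM28, was lowest in HCCLM3. Its mRNA level was 1.24 RPKM in Hep3B, against 0.186 in HCCLM3 and 0.887 in MHCC97H, with 1.42, 0.164 and 1.29 in RNC-mRNA. Hep3B exceeded HCCLM3 6.63-fold (4.88 to 9.17) in mRNA and 8.64-fold (6.41 to 11.9) in RNC-mRNA. MAGEA2 itself had 0 to 26 reads per library, and with both copies summed the mRNA levels were 1.25, 0.214 and 0.979 RPKM.

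MAGEC2 and MAGEC1, which lie apart from the MAGEA cluster on the X chromosome, had at most 3 reads in either Hep3B library. MAGEC2, another partner of TRIM28, had mRNA levels of 0.0113 RPKM in Hep3B from 3 reads, 0.920 in HCCLM3 and 3.03 in MHCC97H, with 0.00959 (3 reads), 1.28 and 3.98 RPKM in RNC-mRNA. MHCC97H mRNA exceeded Hep3B mRNA 267-fold, with an interval of 90.9 to 1295 that reflects the 3 reads, and HCCLM3 mRNA 3.29-fold (2.85 to 3.81). MAGEC1, a tumour antigen with a long repeat region, ran the other way between the related lines. Its mRNA level was 0.00353 RPKM (2 reads) in Hep3B, against 1.03 in HCCLM3 and 0.444 in MHCC97H, with 0 reads, 0.867 and 0.387 RPKM in RNC-mRNA. HCCLM3 mRNA exceeded MHCC97H mRNA 2.31-fold (1.99 to 2.68) for this gene.

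The other 15 cancer-testis members stayed under 1 RPKM in every library. MAGEA11, a coregulator of the androgen receptor, had 0 reads in both Hep3B libraries, where the limit of 3 reads equals 0.00670 RPKM in mRNA. Its level was 0.352 RPKM in HCCLM3 mRNA and that in MHCC97H was 0.141, at least 52.5-fold and 21.1-fold higher than in Hep3B by that limit. MAGEA1, the first MAGE gene to be found as a tumour antigen, had 0 reads in both Hep3B libraries, 2 in each HCCLM3 library, and 36 and 57 in MHCC97H mRNA and RNC-mRNA. MAGEB2 had 0 reads in Hep3B, 4 and 1 in HCCLM3 and 31 and 38 in MHCC97H. MAGEB17 had at most 15 reads in a library. MAGEA4, MAGEA8, MAGEA9, MAGEA9B, MAGEB1, MAGEB6, MAGEB18 and MAGEC3 had at most 9 reads in any library, as had MAGED4, MAGEE2 and MAGEL2 of the other subfamilies. These 11 genes stayed at or under 0.0321 RPKM. Of their 66 line comparisons, 65 could not be told from a ratio of 1 at this depth, some having no reads in either library. The exception was MAGEA8, with 9 reads in Hep3B mRNA and 0 in HCCLM3 mRNA.

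MAGEA10 and MAGEB10 stood at similar low levels in the 3 lines. MAGEA10 stood at 0.267, 0.281 and 0.301 RPKM in mRNA of Hep3B, HCCLM3 and MHCC97H, and at 0.0726, 0.0851 and 0.116 in RNC-mRNA. MAGEB10 stood at 0.343, 0.264 and 0.262 RPKM in mRNA and at 0.0684, 0.0729 and 0.0714 in RNC-mRNA. Each mRNA library of both genes was above each RNC-mRNA library.

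MAGED1 and MAGED2 had the highest levels of all members in HCCLM3 and MHCC97H and were lower in Hep3B. MAGED1, also called NRAGE, binds the low-affinity neurotrophin receptor and can drive apoptosis. Its mRNA level was 16.9 RPKM in Hep3B, against 77.3 in HCCLM3 and 63.9 in MHCC97H, with 12.9, 54.4 and 47.1 in RNC-mRNA. HCCLM3 exceeded Hep3B 4.57-fold (4.48 to 4.66) in mRNA and MHCC97H did so 3.78-fold (3.71 to 3.86), on either side of the 4-fold line used below. MAGED2, in which mutations cause a transient Bartter syndrome before birth, stood at 18.6, 63.4 and 49.7 RPKM in mRNA and at 18.9, 52.1 and 47.7 in RNC-mRNA. HCCLM3 and MHCC97H exceeded Hep3B 3.40-fold (3.30 to 3.51) and 2.66-fold (2.58 to 2.75) in mRNA.

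MAGED4B and MAGEH1, of the widely expressed subfamilies, had almost all their reads in some lines and nearly none in others. MAGED4B had 9377 reads in mRNA of Hep3B, or 21.9 RPKM, and 20.2 RPKM in its RNC-mRNA. HCCLM3 had 1 and 4 reads and MHCC97H 15 and 9, at most 0.0325 RPKM. Hep3B mRNA exceeded MHCC97H mRNA 672-fold (407 to 1202) and HCCLM3 mRNA 9177-fold, with an interval of 1647 to 362496 that rests on the single read. Its near-identical copy MAGED4 was given 1 and 2 reads in Hep3B and 0 in the other libraries, and summing the copies left the Hep3B mRNA level at 22.6 RPKM. MAGEH1, whose protein also binds the low-affinity neurotrophin receptor, was low in Hep3B instead. It had 0 reads in mRNA and 2 in RNC-mRNA of Hep3B, against 3.79 and 4.71 RPKM in HCCLM3 and 5.70 and 8.09 in MHCC97H. Against the limit of 3 reads in Hep3B mRNA, HCCLM3 mRNA was at least 245-fold higher and MHCC97H mRNA at least 369-fold higher.

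MAGEF1 was close to even across the lines in mRNA, and MAGEE1 was lowest in Hep3B. MAGEF1, which joins the ligase NSMCE1 and turns it against the iron-sulphur assembly factor MMS19, stood at 21.2, 17.1 and 19.8 RPKM in mRNA. In RNC-mRNA it stood at 34.6 RPKM in Hep3B against 20.8 and 20.9, and Hep3B exceeded HCCLM3 1.66-fold (1.61 to 1.72). MAGEE1, a protein of the dystrobrevin complex, stood at 0.450, 1.33 and 1.07 RPKM in mRNA and 0.141, 1.23 and 0.810 in RNC-mRNA, where HCCLM3 exceeded Hep3B 8.72-fold (6.92 to 11.1). MAGEL2, a partner of TRIM27 and USP7 that is silenced on the maternal chromosome in the Prader-Willi region, had at most 2 reads in a library.

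To set these differences beside the rest of the genome, genes were counted where the ratio of RPKM + 0.1 between lines was at least 4 and the higher library had at least 1 RPKM. A member may meet this minimum only through the line where it is high, which favours a call without forcing it. The counts therefore describe the libraries and support nothing further. In mRNA, HCCLM3 was higher than Hep3B by this rule for 3 of 4 cancer-testis members (MAGEA3, MAGEA6 and MAGEC1) and 2 of 6 others (MAGED1 and MAGEH1), where 8.5% of all 12737 genes were called higher. It was lower for MAGEA2B and MAGED4B, against 9.92% of all genes. MHCC97H was higher than Hep3B for 4 of 5 cancer-testis members (MAGEA3, MAGEA6, MAGEA12 and MAGEC2) and 1 of 6 others (MAGEH1), where 8.16% of genes were called, and lower for MAGED4B (9.44% of genes). MAGEA3 and MAGEA6 are near-identical copies and count here as separate members. With near-identical copies summed, 4 members in place of 5 were higher than in Hep3B in mRNA of HCCLM3 and of MHCC97H.

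HCCLM3 and MHCC97H, taken against each other in mRNA, differed by this rule for MAGEA12 alone, lower in HCCLM3 (0.333% of genes were called lower and 0.222% higher). In RNC-mRNA the median log2 ratio of all genes tested was shifted to 0.25 for HCCLM3 and 0.26 for MHCC97H over Hep3B. There, HCCLM3 was higher than Hep3B for MAGEA3, MAGEA6, MAGEC2, MAGED1, MAGEE1 and MAGEH1 (11.1% of genes) and lower for MAGEA2B and MAGED4B (9.74%). MHCC97H was higher for MAGEA3, MAGEA6, MAGEA12, MAGEC2 and MAGEH1 (11% of genes) and lower for MAGED4B (9.55%). Between the related lines MAGEA12 and MAGEA2B were lower in HCCLM3 (0.369% of genes called lower, 0.325% higher). The comparisons with Hep3B share its libraries. The MAGED1 call in RNC-mRNA, a log2 ratio of 2.06, was lost at 1.82 when libraries were rescaled to the median ratio and at 1.98 when rescaled to the upper quartile.

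The RNC-mRNA to mRNA ratio gives the share of a transcript among ribosome-bound mRNA relative to its share in total mRNA. The deposited tables mark the fractions by the letters A and C, and C was read as RNC-mRNA because the letter occurs in that name alone. If the letters were exchanged, every ratio would be inverted and levels given for mRNA and RNC-mRNA would trade places. The cancer-testis members with 1 RPKM in both fractions of a line all had ratios above 1, between percentiles 55.8 and 72.0 of the genes of their line. MAGEA3 had a ratio of 1.17 (1.12 to 1.23) in HCCLM3 and 1.24 (1.19 to 1.29) in MHCC97H. MAGEA6 had 1.12 (0.996 to 1.26) in Hep3B, 1.21 (1.17 to 1.26) in HCCLM3 and 1.16 (1.12 to 1.20) in MHCC97H. In MHCC97H, MAGEA12 had a ratio of 1.25 (1.15 to 1.36) and MAGEC2 one of 1.31 (1.20 to 1.44). In Hep3B, MAGEA2B had a ratio of 1.15 (0.993 to 1.33). MAGEC1, under 1 RPKM in a fraction of each line, went the other way with 0.845 (0.750 to 0.952) in HCCLM3 and 0.871 (0.730 to 1.04) in MHCC97H.

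MAGED1 stood low in every line, with ratios of 0.766 (0.746 to 0.786) in Hep3B, 0.705 (0.696 to 0.714) in HCCLM3 and 0.738 (0.728 to 0.747) in MHCC97H. These were percentiles 28.1, 8.76 and 11.7 among the genes of each line. MAGED2 had 1.02, 0.821 and 0.960, and MAGED4B had 0.926 (0.900 to 0.952) in Hep3B. MAGEF1 stood high in Hep3B at 1.63 (1.57 to 1.69), percentile 93.2 of its genes, and nearer the middle at 1.22 in HCCLM3 and 1.06 in MHCC97H. MAGEH1 had 1.24 (1.13 to 1.37) in HCCLM3 and 1.42 (1.32 to 1.53) in MHCC97H. MAGEE1, under 1 RPKM in Hep3B, had a ratio there of 0.313 (0.240 to 0.406), from 82 and 221 reads. Low ratios were common at such levels, with a median of 0.331 in Hep3B for genes at 0.2 to 0.5 RPKM in mRNA of all lines. The MAGEE1 ratio was 0.927 (0.830 to 1.03) in HCCLM3 and 0.758 (0.668 to 0.860) in MHCC97H. Whether ratios differ between lines was not tested, since each line and fraction had 1 library.

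The median log2 ratio of all genes with 1 RPKM in both fractions was -0.03 in Hep3B, against 0.17 in HCCLM3 and 0.16 in MHCC97H. Against these medians, MAGEF1 in MHCC97H lay below the middle with a log2 ratio of 0.08. At a ratio of at least 2 or at most 0.5 stood 0 of the 6, 7 and 8 members with 1 RPKM in both fractions of Hep3B, HCCLM3 and MHCC97H. Among all genes, 1.89%, 0.842% and 0.464% reached 2 and 7.73%, 2.47% and 2.68% fell to 0.5 or under.

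**Figure D3:**
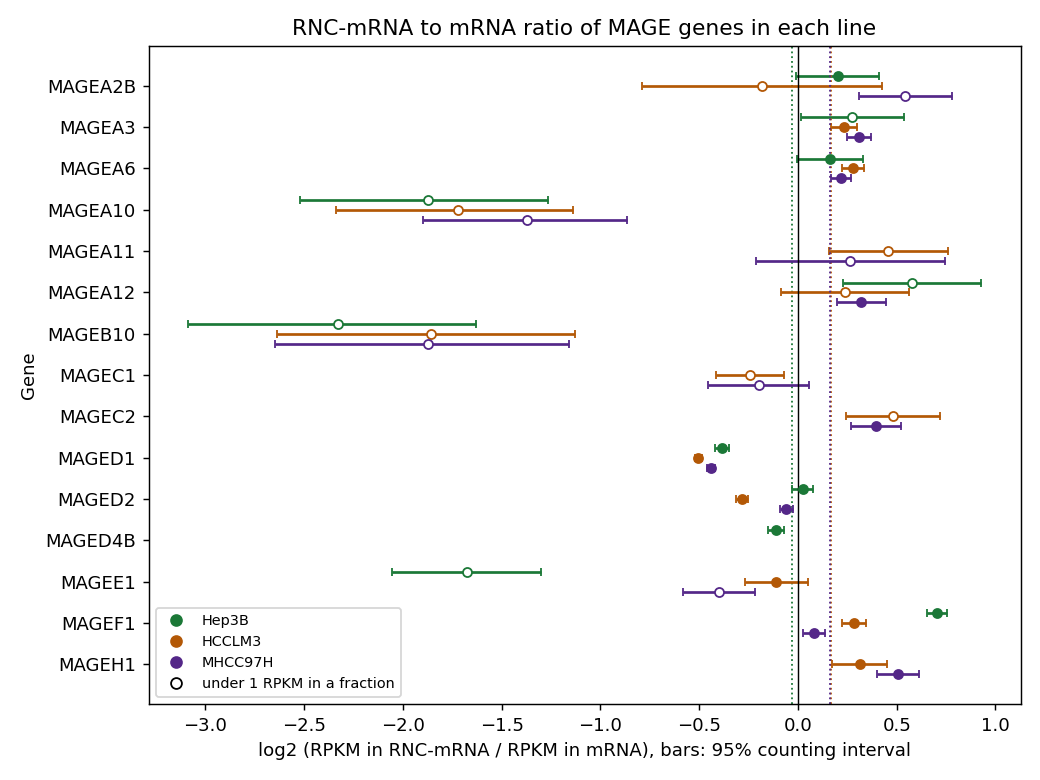
log2 ratio of RPKM in RNC-mRNA to RPKM in mRNA for the members with 1 RPKM in some library and for MAGEA10, MAGEA11 and MAGEB10, in each line where both fractions together held at least 50 reads; bars are 95% counting intervals, open circles mark genes under 1 RPKM in a fraction, and dotted lines mark the median of all genes per line. MAGED1 lies left of 0 in all 3 lines, MAGEA3, MAGEA6 and MAGEA12 lie right of 0, and MAGEA10 and MAGEB10 lie far to the left.

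Over the 3 lines, with the line as a block, edgeR's quasi-likelihood test with Benjamini-Hochberg adjustment called 0 of the 9 members tested (a mean of 1 RPKM or more). It called 8 of 11905 genes higher in RNC-mRNA (0.0672%) and 316 lower (2.65%). MAGED1 was the 1 member with an unadjusted p under 0.05, with a log2 ratio of -0.48 ± 0.13 (SE) and an adjusted p of 0.116, and it was lower in RNC-mRNA in 3 of 3 lines. DESeq2 called 662 genes higher (5.56%) and 1300 lower (10.9%), and among the lower ones 1 of the 9 members, MAGED1, with an adjusted p of 0.0450. Over all alternatives its adjusted p ranged from 3.9e-07 to 1.00. The edgeR adjusted p was 0.328 for MAGEA3 (log2 ratio 0.23 ± 0.13), 0.370 for MAGEA6 (0.18 ± 0.12), 0.337 for MAGEA12 (0.33 ± 0.20) and 0.385 for MAGEC2 (0.28 ± 0.18). For MAGEF1 it was 0.382 (0.32 ± 0.21) and for MAGEH1 0.487 (0.35 ± 0.30). For MAGED2 it was 0.559 and for MAGED4B 0.858. With Hep3B left out, the edgeR fit rested on the related lines HCCLM3 and MHCC97H, and its p-values measure the spread between those alone. That fit called 4187 genes higher (35.2%) and 4005 lower (33.6%), among them 4 members. These were MAGED1 (adjusted p = 3.9e-07) and MAGED2 (0.000658) as lower, and MAGEC2 (0.0188) and MAGEH1 (0.0150) as higher. With HCCLM3 left out, it called 3 genes higher (0.0252%), 119 lower (1%) and 0 members. Without the line block 0 genes were called, and the adjusted p of MAGED1, MAGED2, MAGEC2 and MAGEH1, the highest over their alternatives, was 1.00.

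With no filter on low levels, edgeR called 431 of 19089 genes higher in RNC-mRNA (2.26%) and 1443 lower (7.56%). The 2 of 30 members it called, a share near that of all genes, were MAGEA10 (log2 ratio -1.55, adjusted p = 0.0315) and MAGEB10 (-1.91, adjusted p = 0.0287), as lower in RNC-mRNA. Both genes lie under the minimum of 1 RPKM of the other fits. The ratios by line were 0.273, 0.303 and 0.386 for MAGEA10 and 0.199, 0.276 and 0.273 for MAGEB10, in the order Hep3B, HCCLM3 and MHCC97H. Low ratios were common at this level. Of 327 genes with 0.2 to 0.5 RPKM in mRNA of all 3 lines, a range chosen after the values were seen, 70.6%, 66.1% and 65.1% had a ratio of 0.5 or less, with medians of 0.331, 0.373 and 0.381. MAGEA10 lay at percentiles 35.8, 29.4 and 51.7 of these genes and MAGEB10 at 18.0, 21.4 and 19.6. In RefSeq the MAGEA10 gene model overlaps a second gene model, so reads of both may not be told apart.

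Genes that act with the family were taken from lists chosen for the family and the tissue. TRIM28, the ligase partner of MAGEA3, MAGEA6 and MAGEC2, was abundant in each line, at 223, 331 and 285 RPKM in mRNA. TRIM27, the partner of MAGEL2, stood at 16.3, 14.1 and 17.3 RPKM, NSMCE1, the partner of MAGEF1, at 17.8, 20.6 and 18.3, and PJA1, the partner of MAGED1, at 4.55, 11.9 and 11.6. Of the 14 ligase partners and clients reported, the 4-fold rule found 0 higher and 3 lower in mRNA for HCCLM3 over Hep3B, and 0 and 2 for MHCC97H. The rule called 8.5% of all genes higher and 9.92% lower for HCCLM3, and 8.16% and 9.44% for MHCC97H. Median log2 ratios of the list were -0.00074 and 0.06, against -0.03 and -0.01 for all genes tested. The ligase LNX1 had an mRNA level of 9.03 RPKM in Hep3B against 0.539 and 0.654, and SKP2, a subunit of a cell-cycle ligase, one of 36.1 against 5.80 and 6.42. PRKAA1, which encodes the kinase subunit that the MAGEA3 and MAGEA6 complex degrades, stood at 15.2 RPKM against 3.43 and 4.69, and SMC6, a subunit of the SMC5/6 complex, at 5.87 against 1.94 and 2.42.

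Several enzymes that write and erase DNA methylation had their highest mRNA level in Hep3B, the line with the fewest cancer-testis MAGE reads. DNMT3A, a de novo methyltransferase, had mRNA levels of 24.1 RPKM in Hep3B, against 1.75 in HCCLM3 and 2.29 in MHCC97H. DNMT3B, the other one, stood at 14.4, 2.71 and 3.28 RPKM, and the maintenance enzyme DNMT1 at 91.4, 51.8 and 52.4. The demethylating oxygenases TET1 and TET3 stood at 2.37 and 12.8 RPKM in Hep3B mRNA, 0.125 and 1.14 in HCCLM3 and 0.106 and 1.54 in MHCC97H. Of 14 genes of DNA methylation and chromatin that could be tested, 5 were lower by the 4-fold rule in HCCLM3 and in MHCC97H and 0 higher. Of all genes 9.92% and 9.44% were called lower, and the median log2 ratios of the list were -0.69 and -0.57. In RNC-mRNA 2 of 13 were lower in each and 0 higher, where 9.74% and 9.55% of all genes were called lower. CTCFL, a germ cell paralogue of CTCF, stayed at 0.269, 0.218 and 0.188 RPKM. With 3 lines, whether these levels bear on MAGE expression was not tested.

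Of the 13 ETS and SP factors, 2 were higher by the 4-fold rule in each line than in Hep3B mRNA and 0 lower. Median log2 ratios of the list were 0.63 and 0.73. Of all genes, 8.5% were called higher in HCCLM3 mRNA and 8.16% in MHCC97H mRNA. In RNC-mRNA 3 factors were higher in each line, where 11.1% and 11% of all genes were called higher. The median log2 ratio of all genes was itself shifted to 0.25 and 0.26 in RNC-mRNA. The mRNA level of ETS1 was 0.157 RPKM in Hep3B against 7.26 and 5.84, that of EHF, an epithelial ETS factor, 0.815 against 9.75 and 12.3, and that of ELK1 9.61 against 33.4 and 35.6. ELF1 ran the other way at 13.9 against 3.49 and 3.96 RPKM, a ratio under the 4-fold line.

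Among 12 neighbours on Xq28 with reads, 7 could be tested, with median log2 ratios over Hep3B of 1.55 in HCCLM3 mRNA and 1.74 in MHCC97H mRNA. The 4-fold rule found 1 higher and 1 lower in mRNA for HCCLM3 over Hep3B (8.5% and 9.92% of all genes). For MHCC97H it found 2 and 1 (8.16% and 9.44%). In RNC-mRNA 3 of 7 were higher and 1 lower for HCCLM3 over Hep3B (11.1% and 9.74% of all genes). For MHCC97H there, 4 of 7 were higher and 1 lower (11% and 9.55%). CETN2 of the centrosome and NSDHL of cholesterol synthesis, which lie next to MAGEA6, are active in most tissues and were picked after their values were seen, stood at 11.0 and 13.9 RPKM in Hep3B mRNA, 32.4 and 37.5 in HCCLM3 and 30.1 and 33.9 in MHCC97H. GABRE, a GABA receptor subunit, stood at 0.0366 RPKM in Hep3B against 12.1 and 13.1, whereas PNMA3 stood at 10.7 against 0.0164 and 0.0149. CSAG1, a cancer-testis gene that lies beside MAGEA12, had its highest level in MHCC97H as MAGEA12 did (0.494, 0.0594 and 5.54 RPKM). HMGB3, of the chromatin, stood at 6.48 RPKM against 22.6 and 23.4.

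**Figure D4:**
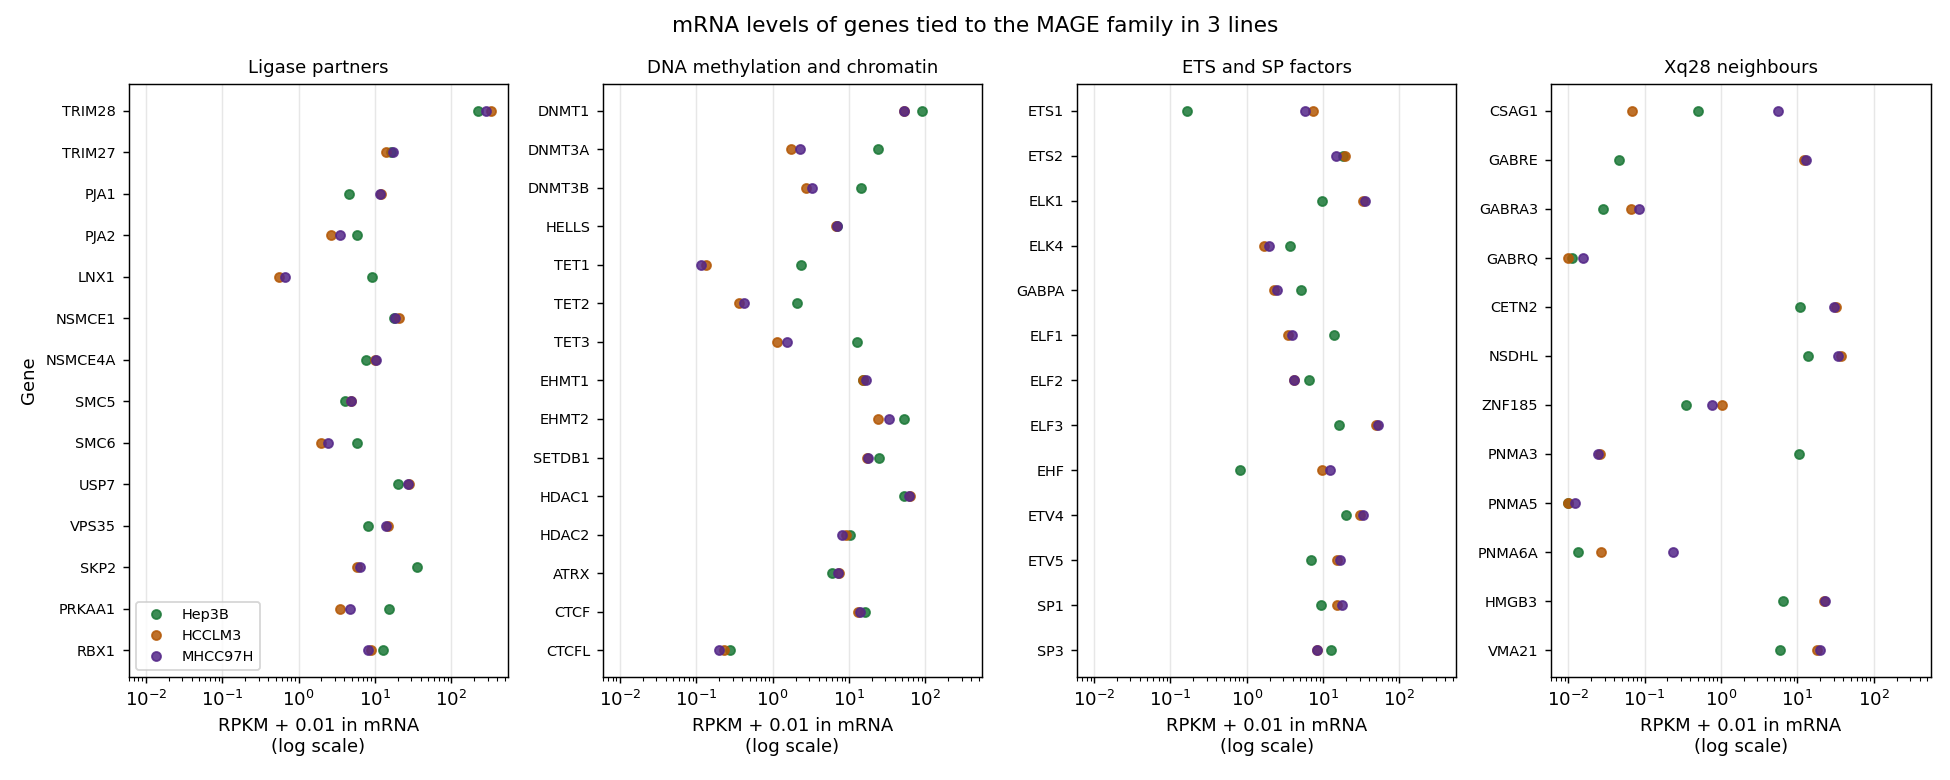
mRNA level, as RPKM + 0.01 on a log axis, of ligase partners and clients, DNA methylation and chromatin genes, ETS and SP factors and Xq28 neighbours in Hep3B, HCCLM3 and MHCC97H (1 library each, coloured points). TRIM28 lies above 200 RPKM in each line, DNMT3A and the TET genes lie highest in Hep3B, and ETS1, EHF and GABRE lie lowest there.

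Of the MAGE relatives whose names do not follow the pattern, 1 of 3 was active. NDNL2, which encodes the MAGE subunit of the SMC5-SMC6 DNA repair complex, stood at 4.54, 7.12 and 11.0 RPKM in mRNA and at 3.88, 8.66 and 13.0 in RNC-mRNA, lowest in Hep3B in both. NDN, which encodes necdin, and TRO, which encodes trophinin, stayed at or under 0.0146 RPKM. In the Prader-Willi region next to MAGEL2, SNRPN, a splicing factor, stood at 182, 72.8 and 57.0 RPKM in mRNA, while MKRN3 stood at 0.161, 1.77 and 2.37. SNURF, which shares a transcript with SNRPN, stood at 5.95, 1.27 and 1.18 RPKM.

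Markers of germ cells, in which the A to C genes are normally active, were compared with those genes. Of 10 germ cell and testis markers 2 reached 1 RPKM in a library, POU5F1 (4.54, 5.20 and 5.60 RPKM in mRNA) and SYCP3 (0.916, 1.00 and 0.943). Over all genes, 68.1% reached that level in some library. The sum over the 10 was 6.40, 7.37 and 7.73 RPKM in mRNA, with POU5F1 the largest part in each line. The sum over the 21 A to C genes, a longer list, was 5.35, 35.2 and 44.1 RPKM. The marker sum lay below it in HCCLM3 and MHCC97H, and in Hep3B it lay above it only through POU5F1. DDX4, DAZL and TNP1, which define germ cells, stayed at or under 0.104 RPKM. Reads assigned to POU5F1 are uncertain, as it has near-identical pseudogenes. Of the liver markers, 5 of 7 were lower by the 4-fold rule in HCCLM3 and in MHCC97H than in Hep3B mRNA, where 9.92% and 9.44% of all genes were. The part of the liver markers in the MAGE differences was not tested. Of the markers of other cells, 2 of 5 for stellate cells, 2 of 4 for endothelium and 2 of 4 for leukocytes reached 1 RPKM in a library. These shares lie below the 68.1% of all genes. In mRNA of Hep3B, HCCLM3 and MHCC97H the stellate list summed to 10.5, 2.94 and 2.80 RPKM, the endothelial list to 0.651, 3.44 and 8.68, and the leukocyte list to 1.88, 10.2 and 3.51. The widest differences were those of PDGFRB (9.02 RPKM in Hep3B mRNA against 0.0215 and 0.0282) and CD79A (0.138 against 9.87 and 2.87). PDGFRB made up most of the stellate sum in Hep3B, and CD79A most of the leukocyte sum in HCCLM3 and MHCC97H. COL1A1 (0.337, 0.567 and 0.508 RPKM in mRNA) and DCN (0.466, 0.650 and 0.582) were lowest in Hep3B, as was LUM. COL1A2 was highest there (0.108, 0.0424 and 0.0643). PECAM1 stood at 0.638, 2.59 and 6.83 RPKM in mRNA, KDR at 0 reads, 0.743 and 1.71 RPKM, CD14 at 1.63, 0.282 and 0.579, and LUM at 0.563, 1.66 and 1.61. PTPRC and CDH5 stayed at or under 0.103 and 0.126 RPKM, and VWF had 0 reads in Hep3B. The part of these markers in the MAGE differences was not tested.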

How the data were processed

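Polyadenylated mRNA and RNC-mRNA of Hep3B, HCCLM3 and MHCC97H were sequenced as 1 library per line and fraction, each an equal pool of 3 cultures, with the NEBNext mRNA kit, per the labels' protocols. The deposited tables give a read count and an RPKM per gene, both made by the authors. The submitters' processing notes name edgeR and hg19; for the aligner, the counter, strand and the handling of reads with several matches, details were not given in the sources used here. A gene without a row was set to 0. Library totals of 129948939 to 157181586 reads were recovered from the authors' counts and RPKM.

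The members and gene lists were chosen with earlier results of these data known. Every member is accounted for. Of each list other than the cell type markers, up to 4 genes with the widest gap between lines in mRNA are named, plus TRIM28, TRIM27, PJA1, NSMCE1, DNMT1 and CTCFL. Outside that rule, CETN2, NSDHL and the cell type markers named were picked after their values were seen. Lists were ligase partners and clients, DNA methylation and chromatin, ETS and SP factors, Xq28 neighbours, Prader-Willi neighbours, family members outside the name pattern, and markers of liver, germ, stellate, endothelial and leukocyte cells. Of the ligase list, 1 gene is not reported here, and the list's counts and medians leave it out.

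Lines were compared by the ratio of RPKM + 0.1, with exact Poisson or binomial 95% intervals that cover counting error only. A count of 0 was bounded at 3 reads per library. RNC-mRNA was tested against mRNA with edgeR 4.0.16 (R 4.3.3; TMM, quasi-likelihood, Benjamini-Hochberg threshold 0.05, mean RPKM of 1 or more, line as block), with DESeq2 1.42.0 as an alternative. The fractions of a line come from the same line, which pairs them, and the correlations of their deviations were 0.952, 0.945 and 0.947. P-values measure the spread between lines, and the fit treats the lines as independent although HCCLM3 and MHCC97H descend from the same parental line. The test was tried on simulated counts with known changes, which it recovered in part for the smaller changes. Promoters are RefSeq windows on GRCh38.p14, matched by symbol for 26 members, and MAGEA1, MAGEA10, MAGEB17 and MAGEH1 had none in the table used.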

Additional observations from a re-analysis of the deposited data

How the results depend on the processing

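At a threshold of 5 RPKM in place of 1, the cancer-testis members counted fell to 0 in both Hep3B libraries and 2 in both MHCC97H libraries, and the D to L members to 3 in both HCCLM3 libraries. At 0.5 RPKM the cancer-testis count was 4 in Hep3B RNC-mRNA and 5 in both HCCLM3 libraries. Shares of all genes at 5 and 0.5 RPKM are not given, so these counts describe the members alone. With a minimum of 5 RPKM, members higher than in Hep3B numbered 3 in HCCLM3 and 3 in MHCC97H in either fraction, members lower in HCCLM3 than in Hep3B numbered 1 in either fraction, and 0 were lower in HCCLM3 than in MHCC97H in either. With a pseudocount of 1 RPKM, 1 member was lower in HCCLM3 than in Hep3B in either fraction, 3 were higher in MHCC97H mRNA, 3 were higher in HCCLM3 RNC-mRNA, and 0 were lower in HCCLM3 than in MHCC97H in either fraction. Among 383 alternative values of 61 line ratios of single members, 369 kept their call, 14 changed it and 0 changed direction. For RNC-mRNA against mRNA, the fit without the replicate block called 0 genes higher and 0 lower, the fit with no filter 431 and 1443, and DESeq2 662 and 1300. Leaving out 1 line gave 3 to 4187 genes higher and 119 to 4005 lower. Members called numbered 2 with no filter, 1 with DESeq2 and 0 to 4 with a line left out. The cause was not tested in these cases. The 11 members with fewer than 10 reads in every library gave 66 line comparisons. Of these, 65 could not be told from a ratio of 1 at this depth, some having no reads in either library.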
